A study of Mus musculus with 6 samples.

Results

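The genes described here make, cleave, sense or limit signals that set vessel tone, namely Edn1, Ece1, Ednra and Ednrb of the endothelin pathway, Nos3 and Nostrin of nitric oxide production, Ace of the renin-angiotensin system, and Ptgs1 and Ptgis of prostacyclin synthesis. They were listed by name, and a probe set was taken for a gene where the platform annotation names that gene alone. This gave 12 probe sets for 7 of the 9 genes, out of 45037 probe sets and 18193 named genes. Ednra and Ptgs1 have no such probe set in the annotation used here and were not analysed. The brightest probe set of a gene, by its mean over the 6 arrays, stands for it, and Ece1, Ednrb and Ace have others that are given beside it.

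RNA came from endothelial cells sorted on CD31 from mammary glands of FVB/N mice at 9 weeks of age. In 3 samples the mice were PyMT;Fsp-Cre;Ets2db/loxP (deleted below), in which Cre under the promoter of Fsp1, a gene of fibroblasts, removes Ets2 around the sorted cells, and in 3 samples they were PyMT;Ets2db/loxP (control below). Both groups carried the PyMT oncogene, which drives mammary tumors from the epithelium, and the db and loxP alleles of Ets2. The source field of the controls says that they had no oncogene, which contradicts their titles and genotypes, and the genotypes were used. The comparison asks whether Ets2 in tumor fibroblasts alters the transcripts of neighboring endothelium.

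Endothelial cells secrete opposing signals to the smooth muscle and pericytes around them. Endothelin-1, the product of Edn1, is cut from its precursor by the endothelin converting enzyme Ece1. It constricts vessels through the receptor Ednra on smooth muscle, whereas the receptor Ednrb on endothelium clears endothelin and releases nitric oxide. Nitric oxide from the endothelial synthase Nos3 relaxes vessels and sustains angiogenesis, and Nostrin binds Nos3 and draws it away from the plasma membrane. Ace, the angiotensin converting enzyme, forms angiotensin II and degrades bradykinin. Ptgs1, a cyclooxygenase, and Ptgis, the prostacyclin synthase, act in sequence to make the vasodilator prostacyclin.

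Values are log2 signal by the Robust Multichip Average (RMA) method, and differences are deleted minus control means on that scale. A probe set's signal does not order the abundance of different transcripts. Markers of endothelium had a mean over 14 genes between 12.11 and 12.44 in deleted arrays and between 11.98 and 12.27 in control arrays, and 12 of them were higher in deleted samples. Ets2 itself read 14.30 to 14.50 in deleted and 14.26 to 14.48 in control arrays, and the sorted cells were not the target of the deletion. The highest signal of any probe set was 14.76 to 14.91 on these arrays. Whether the Ets2 probes lie in the part of the gene that Cre removes was not examined. Transcripts of other cells were also present. Epithelial markers had a mean over 10 genes of 11.96 to 12.52 in deleted and 12.18 to 12.55 in control arrays, a range that overlaps that of the endothelial list. All 14 fibroblast markers and 11 of 12 macrophage markers were lower in deleted samples, with means of 8.95 to 9.07 against 9.29 to 9.67 and of 8.06 to 8.51 against 8.70 to 9.26, while 13 of 15 mural cell markers were higher, with overlapping means of 10.45 to 10.54 against 10.13 to 10.49. Lower in deleted samples were also 6 of 6 lymphatic endothelial markers, with a median difference of -0.50 against -0.45 for the fibroblast list. So were 6 of 7 leukocyte (median -0.43) and 9 of 10 epithelial markers (median -0.17). Array means overlapped between the groups for the lymphatic list (8.93 to 9.49 in deleted against 9.33 to 10.15 in control arrays). They also overlapped for the leukocyte list (9.61 to 10.31 against 10.03 to 10.57) and the epithelial list. Platelet markers were split, with 3 lower, 2 higher and a median of -0.04. In sorted bulk RNA, fewer cells of a type and less RNA per cell cannot be told apart. Control replicate 3 stood apart on the first principal component, at 70.2. Deleted replicate 2 lay on the same side, at 35.8, and the other arrays at -37.1 to -3.6. The gap between 3' and 5' probe sets of beta-actin was also largest in control replicate 3 (1.67, against 0.99 to 1.29). The difference of each vasoactive gene is therefore also given without control replicate 3. Ranges with any 1 array left out are given at the end. Of the marker lists, the leukocyte, epithelial and macrophage medians were -0.22, -0.05 and -0.43 without control replicate 3. With all arrays the macrophage median was -0.71. The fibroblast, lymphatic and mural cell medians without that array were -0.46, -0.57 and 0.12.

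With all 6 arrays, the 95% interval of the difference between the genotypes included 0 for each of the 7 genes. The largest difference was that of Nostrin. With limma, 0 of the 12 probe sets had an adjusted p under 0.05, and 0.0% of all 45037 did. An unadjusted p under 0.05 was reached by 0 of 12 with all 6 arrays, against 2.07% of all probe sets, and the study's further requirement of more than a 2-fold change was met together with it by 0 of 12, against 0.129% of all. The groups did not overlap for 1 of 12, that of Nostrin, against 6.44% of all probe sets. By brightest probe set 5 genes were lower and 2 higher, with a median difference of -0.03, against 0.004 over all 18193 genes, and the median size of the difference was 0.09 against 0.11. The 95% interval lay within a 2-fold change in either direction for 6 of the 7 genes, Nostrin being the exception, as it did for 89.5% of all genes.

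**Figure D1:**
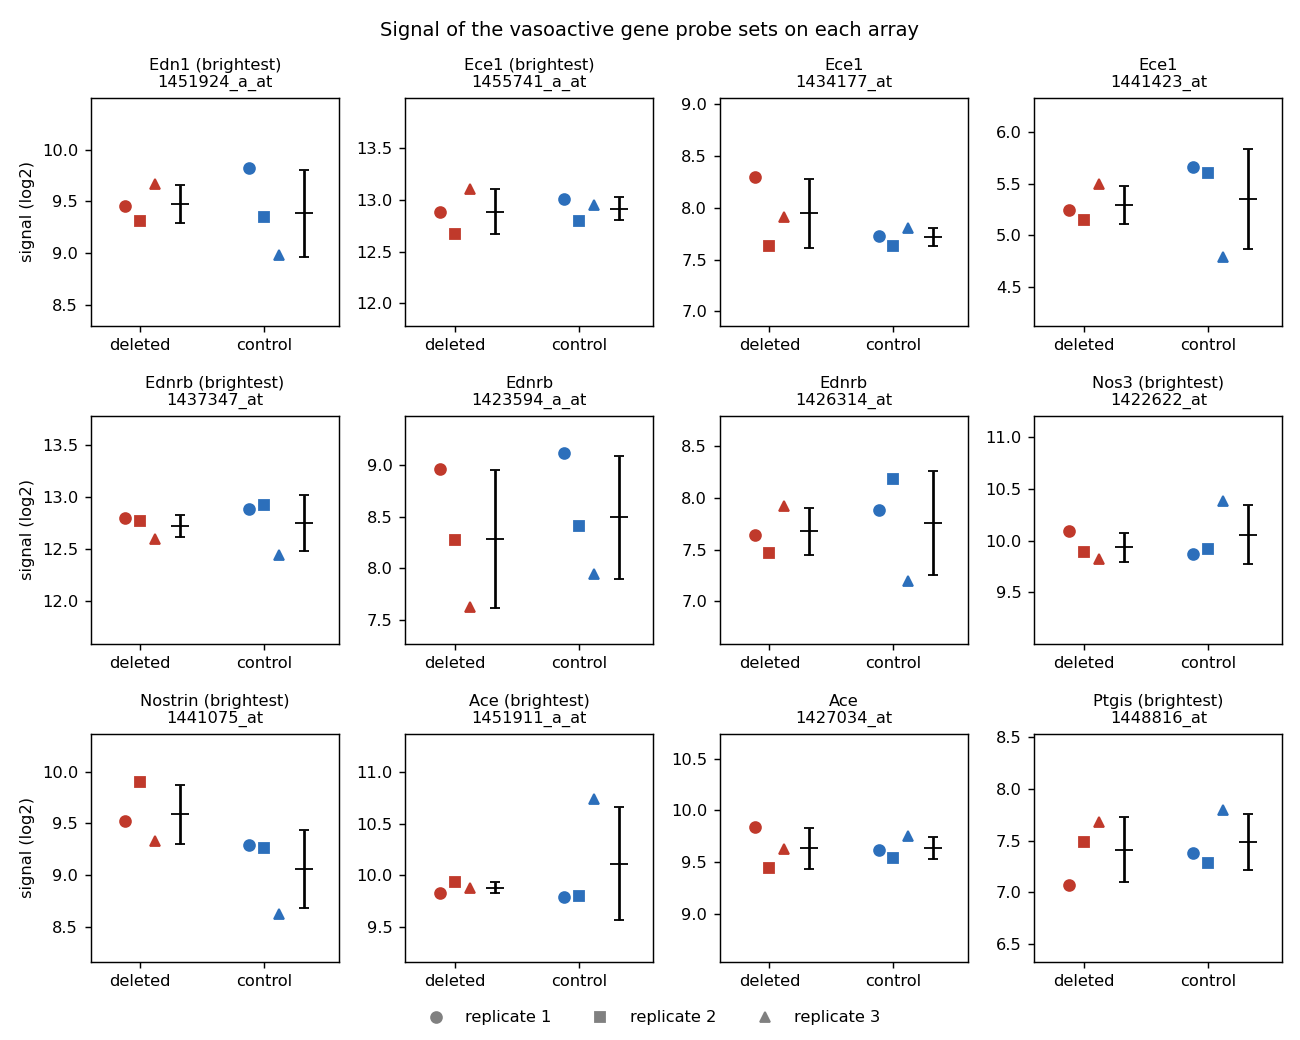
Signal (log2, vertical axis, each panel spanning the same range) of the 12 probe sets on each array, with deleted arrays in red at the left, control arrays in blue at the right, a marker shape per replicate and black bars that give group means with SD (n = 3). The groups overlap in every panel except that of Nostrin, and control replicate 3 lies far from the other control arrays for Ace (10.74) and Nostrin (8.62).

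Edn1, the precursor of endothelin-1, lies on chromosome 13 and was measured by a single probe set. It read 9.45, 9.31 and 9.67 in deleted replicates 1 to 3, against 9.82, 9.35 and 8.98 in control replicates 1 to 3. The 3 deleted arrays lay between the highest and the lowest control array, so the groups overlapped fully. The difference was 0.09 with an SE of 0.23 and a 95% interval from -0.46 to 0.64, and it became -0.11 when control replicate 3 was left out.

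Ece1, which releases the active peptide, read 12.88, 12.67 and 13.10 in deleted arrays, against 13.00, 12.80 and 12.95 in control arrays. Deleted arrays held both the lowest and the highest value. The difference of -0.03 had a 95% interval from -0.41 to 0.35, which as a fold is 0.752 to 1.27, and it was -0.02 without control replicate 3. A dimmer Ece1 probe set read 8.30, 7.63 and 7.92 in deleted arrays against 7.72, 7.63 and 7.80 in control arrays and differed by 0.23, or by 0.27 without control replicate 3. The dimmest read 5.15 to 5.49 in deleted and 4.79 to 5.66 in control arrays and differed by -0.06, or by -0.34 without that array and by -0.44 without replicate 3 of both groups, where limma's unadjusted p was 0.041. It was the only probe set of the 12 below 6.04, the 95th percentile of 39 olfactory receptor genes, which endothelium is not known to use.

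Ednrb, the endothelin receptor of endothelium, read 12.80, 12.77 and 12.60 in deleted arrays, against 12.88, 12.93 and 12.44 in control arrays. Control replicates held the extremes, and the difference was -0.03 (95% interval -0.44 to 0.38), or -0.18 without control replicate 3. A dimmer Ednrb probe set varied far more between arrays of the same genotype, with 8.96, 8.27 and 7.63 in deleted and 9.12, 8.41 and 7.95 in control arrays. Its span over the 6 arrays was 1.49, against 0.49 for the brightest probe set, and its difference of -0.21 had the widest interval of the 12, from -1.16 to 0.74. The remaining Ednrb probe set differed by -0.08, so the direction was the same at all 3, while without control replicate 3 the 2 dimmer ones differed by -0.48 and -0.36. Without replicate 3 of both groups the last of these differed by -0.48, with a 95% interval from -0.97 to 0.01.

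Nos3, the endothelial nitric oxide synthase, had a single probe set, at 10.10, 9.90 and 9.83 in deleted arrays against 9.88, 9.92 and 10.38 in control arrays. Control replicate 3 was the highest array and the other 5 spanned 9.83 to 10.10. The difference was -0.12 with an SE of 0.18 (95% interval -0.55 to 0.31) and turned to 0.04 without that array.

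Nostrin, the adaptor that binds Nos3, was the only gene of the 7 whose groups were apart. It read 9.52, 9.90 and 9.33 in deleted arrays, against 9.29, 9.26 and 8.62 in control arrays, at its single probe set. Every deleted array was above every control array, although deleted replicate 3 exceeded control replicate 1 by little. The difference was 0.53 with an SE of 0.24, or 1.44-fold, and its 95% interval ran from -0.03 to 1.09. limma's unadjusted p was 0.062 and its adjusted p 0.9999, and an exact two-sided permutation test gave p = 0.1, the smallest that 3 against 3 arrays allow. The deleted arrays were the higher ones without overlap at 3.61% of all probe sets, and a difference of at least this size in either direction occurred at 3.26% of them. The value was 0.31 without control replicate 3, in which Nostrin was lowest, and 0.37 without deleted replicate 2, in which it was highest. The endothelial marker mean was also lowest in control replicate 3, at 11.98, but in deleted replicate 2 it was the second lowest, at 12.11. The median difference of the 14 endothelial markers was 0.13, in the direction of Nostrin, and 0.06 without control replicate 3. Whether the share of endothelial RNA has a part in the Nostrin difference was not tested.

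Nostrin was picked here because its groups were apart, as were those of 6.44% of all probe sets. The region before its start site is shown with that of Edn1, the ligand whose groups overlapped fully. Ets factors bind DNA at a GGAA core, printed in capitals on either strand (GGAA or TTCC). Sequences are the 250 bases upstream of the start given by RefSeq (GRCm38.p6), Nostrin at chr2:69135550-69135799 and Edn1 at chr13:42301226-42301475, both on the plus strand.
Nostrin: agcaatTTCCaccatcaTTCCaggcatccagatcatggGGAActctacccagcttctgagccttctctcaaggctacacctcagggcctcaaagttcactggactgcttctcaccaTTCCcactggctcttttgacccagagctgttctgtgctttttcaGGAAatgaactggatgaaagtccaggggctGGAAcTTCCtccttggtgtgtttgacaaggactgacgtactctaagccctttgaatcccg
Edn1: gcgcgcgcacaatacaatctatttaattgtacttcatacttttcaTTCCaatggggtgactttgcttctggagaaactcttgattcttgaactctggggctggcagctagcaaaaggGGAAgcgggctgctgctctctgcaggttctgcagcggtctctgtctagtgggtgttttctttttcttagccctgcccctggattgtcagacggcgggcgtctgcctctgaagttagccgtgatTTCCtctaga
The Nostrin window held 7 matches and the Edn1 window 3, where the median over 32851 such windows was 3 and 93.4% of them held at least 1. At least 7 matches occurred in 3.82% of windows. The windows of Ace, Ece1, Ednra, Ednrb and Ptgs1 held 0 to 3, and none was available for Nos3 and Ptgis. The longer form CCGGAAGT, searched on both strands, which contains the core, was found in neither window and in 2.88% of all. These matches describe letters only, since binding was not measured and the deletion was not directed at the sorted cells.

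**Figure D2:**
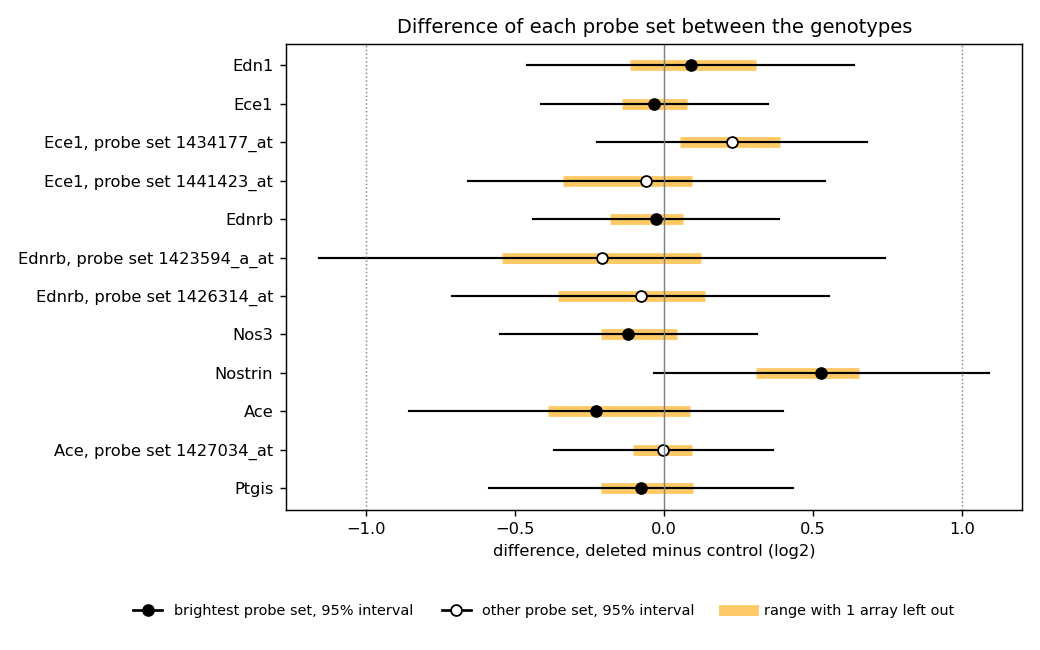
Difference of each probe set (deleted minus control, log2, horizontal axis) as points with 95% intervals, filled for the brightest probe set of a gene and open for the others, with orange bars for the range when 1 array is left out and dotted lines at a 2-fold change. All 12 intervals, drawn for all 6 arrays, include 0, and that of Nostrin reaches from -0.03 to 1.09.

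Ace, which forms angiotensin II on the endothelial surface, read 9.83, 9.94 and 9.88 in deleted arrays, against 9.79, 9.80 and 10.74 in control arrays. A single array, control replicate 3, gave the group its SD of 0.55 (n = 3), whereas the deleted arrays had an SD of 0.05 (n = 3). The difference was -0.23 (95% interval -0.86 to 0.40) with that array and 0.09 without it. The other Ace probe set did not show a high value there, with 9.84, 9.44 and 9.62 in deleted and 9.61, 9.54 and 9.75 in control arrays, and differed by -0.003, or by 0.05 without that array.

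Ptgis, the enzyme of the final step to prostacyclin, read 7.07, 7.48 and 7.68 in deleted arrays, against 7.38, 7.29 and 7.79 in control arrays. Deleted replicate 1 was the lowest and control replicate 3 the highest array. The difference was -0.08 (95% interval -0.59 to 0.43), or 0.08 without control replicate 3. Ptgis is also made by mural cells and fibroblasts, whose marker lists differed in opposite directions as given above, and their part in its level was not tested.

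Control replicate 3 had the highest or the lowest value of the 6 arrays for 6 of the 7 genes (Ece1 was the exception), against 49.2% of all genes. Edn1, Ednrb and Nostrin were lowest there, at -0.45, -0.30 and -0.70 from their means over the 6 arrays, and Nos3, Ace and Ptgis were highest, at 0.39, 0.74 and 0.34. The genes therefore did not deviate in a common direction on that array. The control SD exceeded the deleted SD for 5 of the 7, against 48.0% of all genes.

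**Figure D3:**
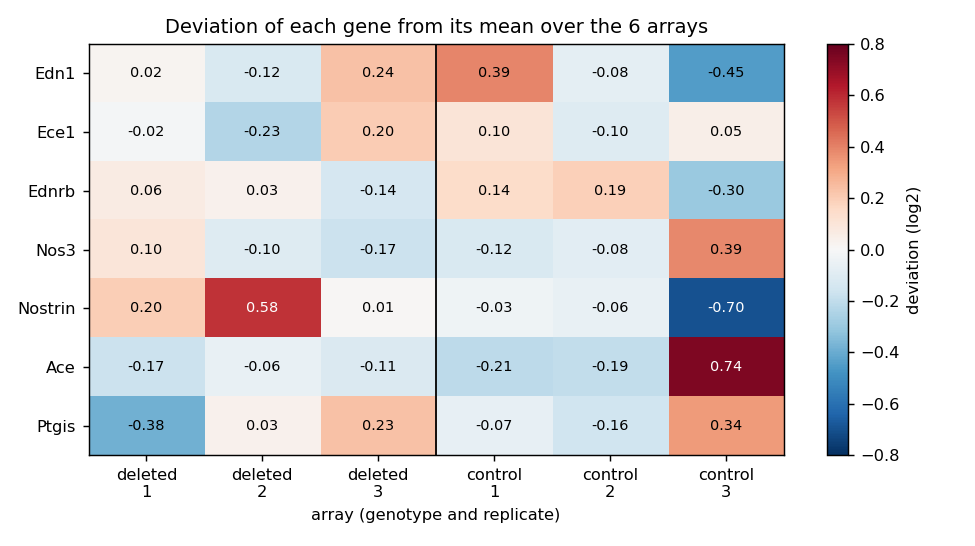
Deviation of each gene's brightest probe set from its mean over the 6 arrays (log2, color and printed value), with genes in rows and arrays in columns, deleted arrays left of the black line and control arrays right of it. The column of control replicate 3 holds the strongest deviations in both directions, from -0.70 for Nostrin to 0.74 for Ace.

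Other genes of the same pathways did not pass the test either. Of 92 further genes listed for the endothelin, nitric oxide, renin-angiotensin and kinin, prostanoid and natriuretic peptide systems, 85 were measured, of which 43 were lower and 42 higher, with a median of -0.005. At an adjusted p under 0.05 there were 0, and at an unadjusted p under 0.05 there were 2, Arg2 and Spr, against 1.79% of all genes. The groups did not overlap for Spr alone, which was higher, as were 3.36% of all genes without overlap, while 0 of the 85 were lower without overlap, against 2.7% of all genes.

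The nitric oxide list held the 2 genes just named. Spr, the sepiapterin reductase that makes the Nos3 cofactor tetrahydrobiopterin, read 9.56, 9.87 and 9.49 in deleted arrays against 9.09, 9.43 and 9.06 in control arrays. All deleted arrays exceeded all control arrays, by a mean of 0.45 (SE 0.17, unadjusted p 0.036 in limma's fit), and the difference was 0.38 without control replicate 3. Arg2, an arginase that competes with nitric oxide synthases for arginine, read 7.52, 8.20 and 7.46 in deleted arrays against 8.44, 8.15 and 8.63 in control arrays. Here deleted replicate 2 overlapped the control arrays, and the difference of -0.68 (SE 0.24) became -0.57 without control replicate 3. Macrophages also make Arg2, and the part of the macrophage markers, which were lower as given above, was not tested. Pde1a, a phosphodiesterase of cyclic nucleotides, differed by 0.55, or 0.32 without control replicate 2 and 0.80 without control replicate 1, at a dim probe set that read 5.60 to 6.36 in deleted and 4.91 to 5.88 in control arrays. Its deleted and control means, 5.93 and 5.38, were both below the olfactory receptor percentile of 6.04. Among the 28 measured genes of this list 10 were lower and 18 higher, with a median of 0.08. Of the direct partners of Nos3, Cav1, the caveolar protein that holds Nos3 inactive, differed by 0.09 and the chaperone Hsp90aa1 by 0.03, and both turned without control replicate 3, to -0.005 and -0.04. Nosip and Akt1 of the same list differed the other way, by -0.08 and -0.03, and turned without that array to 0.10 and 0.14.

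In the endothelin list 8 of 14 genes were lower and 6 higher, with a median of -0.01. Its largest difference was that of Rgs4, a regulator that shortens signaling by Gq-coupled receptors, at 0.52 (SE 0.27), with readings of 11.07, 10.96 and 11.24 in deleted and 11.17, 10.32 and 10.21 in control arrays. Control replicate 1 lay among the deleted arrays, and the value was 0.34 without control replicate 3 and 0.83 without control replicate 1. Mme, neprilysin, which degrades endothelin, differed by -0.44, but by -0.13 without deleted replicate 1, -0.69 without deleted replicate 2 and -0.28 without control replicate 3. Gpr37l1 differed by 0.25, or 0.08 to 0.50 with 1 array left out, at a probe set that read below the olfactory receptor percentile on all arrays. The other ligands Edn2 and Edn3 differed by 0.03 and -0.01, and both took either sign with 1 array left out.

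In the prostanoid list 14 of 21 genes were lower and 7 higher, with a median of -0.06. Ptgfr, the receptor of prostaglandin F, differed by 0.54, or by 0.25 without deleted replicate 2. Its probe set read below the olfactory receptor percentile on all arrays. Ptgs2, the inducible cyclooxygenase, differed by 0.47, or by 0.26 without deleted replicate 3 and 0.80 without deleted replicate 2. Hpgd, which inactivates prostaglandins, differed by -0.48. The difference of Hpgd was -0.19 without control replicate 3, where it read 7.55, above the 6.17 to 6.93 of the rest. Ptgir, the receptor of prostacyclin, differed by 0.37.

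The renin-angiotensin and kinin list had 8 lower and 6 higher of 14 genes and a median of -0.04. Prcp, a carboxypeptidase that acts on angiotensin II, differed by 0.39, but by 0.06 without control replicate 3 and 0.77 without deleted replicate 2. Agt, the angiotensin precursor, differed by 0.35 (SE 0.18), or by 0.22 without deleted replicate 2. Cma1, a mast cell chymase, differed by -0.28, or by -0.07 without deleted replicate 3, at a probe set below the olfactory receptor percentile on all arrays. The angiotensin receptor Agtr1a and the bradykinin receptor Bdkrb2 differed by -0.04 and 0.06, and both took either sign with 1 array left out. In the natriuretic peptide list 3 of 8 genes were lower and 5 higher, with a median of 0.02, and the receptors Npr1, Npr2 and Npr3 differed by -0.32, -0.21 and -0.23. The value for Npr1 turned to 0.05 without control replicate 3, and that for Npr3 was -0.01 without control replicate 1 and -0.39 without control replicate 3.

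**Figure D4:**
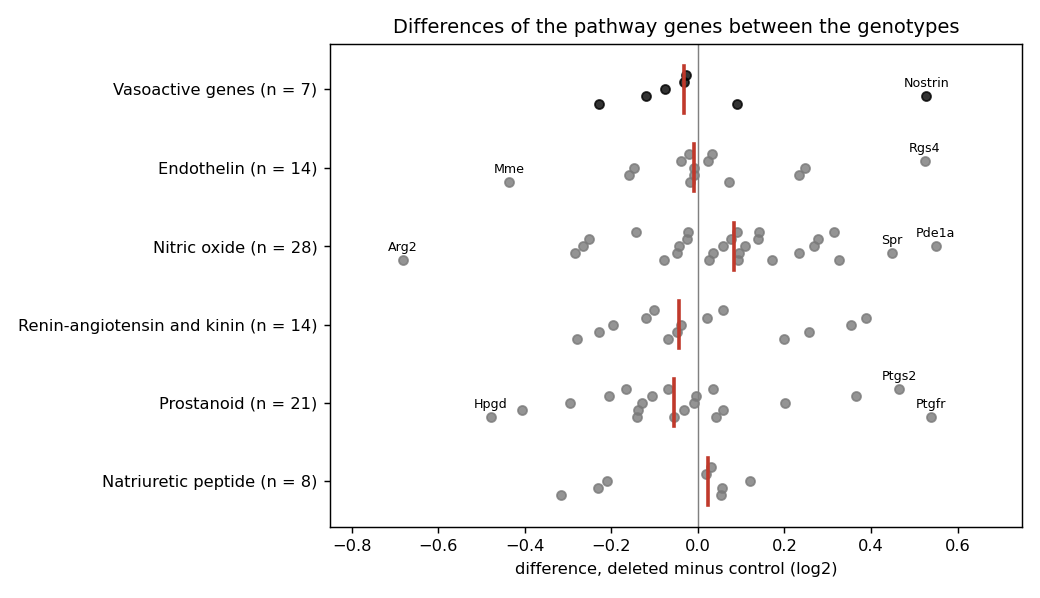
Difference of each gene (deleted minus control, log2, horizontal axis) by its brightest probe set, for the 7 vasoactive genes in black and the pathway lists in grey, with red bars for the median of each row and names for genes beyond 0.42 in size. The medians lie between -0.06 and 0.08, and Arg2 at -0.68 is the farthest from 0.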

How the data were processed

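RNA from CD31-sorted mammary endothelial cells of 3 deleted and 3 control samples was measured on Affymetrix mouse expression arrays, 1 array per sample. The authors deposited log2 values made by RMA, in which background is subtracted, arrays are brought to a common distribution and the probes of a set are combined. The sources used here give no version of it. Differences of dim probe sets come out smaller under RMA than they are. Array medians were 7.02 to 7.07, and the values were used as deposited. All probe sets entered the fit except 64 array controls, 45037 of 45101. The platform annotation names a single gene for 34945 of them, several for 932 and none for 9160, and RefSeq gene numbers matched 34741.

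Deleted and control arrays were compared with limma 3.58.1 (R 4.3.3, lmFit and eBayes without covariates, two-sided), and p-values were adjusted by Benjamini-Hochberg over all probe sets. Precision is limited by having 3 arrays a group, and 95% intervals reached 0.45 to either side at the median. Samples of a group are biological replicates by the study's account. Members and gene lists were chosen with earlier results of these data known. From each pathway list the 3 genes with the largest difference are named, and Cav1, Hsp90aa1, Nosip, Akt1, Edn2, Edn3, Ptgir, Agtr1a and Bdkrb2 were picked for their roles with their values already known. Alternatives covered dim probe sets left out, other priors, array weights, medians centred and another quantile step. They also covered the numbers in the sample identifiers as a block, unmoderated tests, the mean over a gene's probe sets and arrays left out.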

Additional observations from a re-analysis of the deposited data

How the results depend on the processing

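No difference of the 12 probe sets passed an adjusted p under 0.05 in limma or in the unmoderated tests under any of the 17 alternatives, where the smallest was 0.608. Nostrin kept its direction in all of them. With 1 array left out it ranged from 0.31 to 0.65, Edn1 from -0.11 to 0.31, Ece1 from -0.14 to 0.077, Ednrb from -0.18 to 0.062, Nos3 from -0.21 to 0.043, Ace from -0.39 to 0.086 and Ptgis from -0.21 to 0.10. The other probe sets ranged from 0.05 to 0.39 and from -0.34 to 0.10 for Ece1, from -0.54 to 0.12 and from -0.36 to 0.14 for Ednrb, and from -0.10 to 0.094 for Ace. Array weights, which favor control replicate 2, gave 0.11 for Ece1, 0.039 for Ace, 0.12 for Ptgis, 0.29 for Nostrin and 0.088 for the dimmer Ace probe set. Leaving out replicate 3 of both groups gave -0.21 for Edn1, 0.10 for Nos3, 0.087 for Ace 0.059 for the dimmer Ace probe set, -0.44 for the dimmest Ece1 probe set and -0.48 for the dimmest Ednrb probe set, against -0.06 and -0.08 with all arrays. The same 6 values came, by construction, from a fixed replicate block on the number in each sample's identifier. Replicate 3 of either group has a number of its own, so that block leaves both arrays out of the comparison. Deviations from the group means correlated at 0.166 and -0.017 for the 2 numbers that both groups share. For deleted and control arrays with different numbers the correlations ran from -0.438 to 0.371. The labels do not say that the identifier number pairs animals. With it as a random replicate block the dimmer Ace probe set differed by 0.0011, with centring by 0.013 and with a further quantile normalization by 0.0028. The mean over its probe sets gave 0.046 for Ece1. By brightest probe set 0 of the 7 genes had an unadjusted p under 0.05 with all 6 arrays. Nostrin had one without deleted replicate 3 (limma, 0.048) and one in the fit to means over probe sets (limma, 0.0499). Nostrin has a single probe set, so in the latter its difference stayed at 0.53. Only its SE changed, from 0.239 to 0.227, because limma's variance prior was drawn from another set of rows. Of the other probe sets, the dimmest of Ece1 had one with the fixed replicate block (limma, 0.042) and without replicate 3 of both groups (limma, 0.041). The count ranged from 0 to 1 with 1 array left out. The dimmest Ece1 probe set had no value with a filter at the median signal, which leaves it out. The cause of the remaining changes was not tested.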
